A study of Mus musculus with 4 samples.

Results

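The genes for the proteins of the mitochondrial ribosome were examined for CpG methylation in hippocampal microglia. Members were the autosomal protein-coding genes whose symbol is Mrpl or Mrps followed by a number, which gave 78 of 20665 autosomal protein-coding genes, by symbol 49 for the large subunit (Mrpl) and 29 for the small subunit (Mrps). All 78 had 3 or more CpGs and 10 or more reads per library over the gene and 2 kb on each side, here called the span. The study profiled microglia, immune cells that reside in the brain, by whole-genome bisulfite sequencing, in which unmethylated cytosine is read as T. All mice were Tmem119-tdTomato+/-, carrying a red fluorescent reporter at the microglial gene Tmem119, and were taken at postpartum week 3. There were 2 libraries of control mice and 2 of FGR mice, where FGR stands for restricted growth before birth, and the comparison asked how that growth restriction relates to microglial DNA methylation. How the restriction was brought about, how the cells were isolated and whether a library is 1 animal or a pool is not stated in the labels, so the p-values describe the spread of these 4 libraries and nothing wider.

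Mitochondria carry their own small genome and translate its few messages, which encode core subunits of the respiratory chain and ATP synthase, on a ribosome of their own. The RNA of that ribosome is encoded in mitochondrial DNA, but every one of its proteins is encoded in the nucleus, made in the cytosol and imported. Many of the proteins have counterparts in bacterial ribosomes, and many others exist only in mitochondrial ribosomes. The nuclear genes are active in nearly all cell types and mostly start in CpG-rich promoters without methylation, where factors such as NRF1, ETS proteins and YY1 are known to bind at genes of mitochondrial function.

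The 4 libraries held between 49563150 and 91762720 reads summed over cytosines, FGR 1 the shallowest and FGR 2 the deepest, with a lowest listed coverage of 5 reads and a mean of 6.51 to 6.76. At the starts of marker genes fixed for the cell type, 4 of 10 microglial genes could be measured, with a mean level over the libraries of 1.99% at P2ry12, 2.45% at Cx3cr1, 19.6% at Fcrls and 54.6% at Siglech. Of 13 genes of other cell types 5 could be measured, with 83.6% at the neuronal gene Rbfox3, 77.8% at the lymphocyte gene Cd3e, 75.7% at the astrocyte gene Gfap, 30.6% at Aldh1l1 and 4.45% at Pdgfra. Siglech and Gfap differed most between the groups, with 82.5% in control and 26.7% in FGR and with 89.5% and 62.0%, and the part of cell makeup in the results was not tested.

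The members lie on 17 autosomes, with 11 on chromosome 11 and 8 on chromosome 17. Genes were 825 to 121712 bp long with a median of 7690.5 bp, Mrpl53 being the shortest and Mrps28 the longest. An annotated start was at hand for 69 members. Of these, 23 (33.3%) started within 1 kb of another protein-coding gene that points the other way, against 8.03% of all 16457 protein-coding genes with a start. The large-subunit gene Mrpl46 and the small-subunit gene Mrps11 form such a pair with each other, 42 bp apart. Other partners were Ndufb5, a subunit of respiratory complex I, beside Mrpl47, and Fau, a protein of the cytosolic ribosome, beside Mrpl49. In all, 52 spans overlap another protein-coding gene, so CpGs counted for these members are also counted for a neighbour.

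The promoters differed from most others in sequence. From 250 bases before to 50 bases after the start, members held a median of 21 CpGs, against 14 over all 16457 promoters. The ratio of observed to expected CpGs was above 0.6 in 64 of 69 members (92.8%) and in 49.8% of all promoters. Cytosolic ribosomal protein and respiratory chain promoters were much like the members, with medians of 21.5 and 20 CpGs and 85% and 84% above 0.6. Each promoter was searched on both strands for NRF1 (GCGCA, any base, GCGC), ETS (CCGGAAG), YY1 (AAGATGGCG), SP1 (GGGCGG) and CREB (TGACGTCA) motifs. The NRF1 motif was in 18.8% of members and 6.88% of all promoters, the ETS motif in 34.8% and 12.3%, and the YY1 motif in 11.6% and 1.92%. The SP1 motif was about as frequent in members, at 49.3%, as in all promoters, at 47.3%, and the CREB motif was in 2.90% and 2.40%. At least 1 of the NRF1, ETS and YY1 motifs was in 39 members (56.5%) and in 19.1% of all promoters. This share was not particular to the members, with 51.7% in cytosolic ribosomal protein and 49.3% in respiratory chain promoters. In cytosolic ribosomal protein genes the ETS motif was the more frequent, at 40% of 60 promoters, and NRF1 was in 8.33%, while in respiratory chain genes NRF1 and ETS were each in 24% of 75. A match describes these letters and not binding.

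Below are 6 of these promoters from RefSeq (GRCm38.p6), 5′ to 3′ on the strand of the gene, with motif matches in capitals. Mrpl39 is the one member called at CpGs listed in all libraries, and Mrpl43 and Mrpl21 were among the largest span differences. Mrps26 had the smallest p among the annotated starts and carries 3 of the motifs, and Mrpl36 shows the YY1 motif. Mrpl20, chosen after its values were seen, is the one with much methylation among promoters with a listed CpG.
Mrpl39: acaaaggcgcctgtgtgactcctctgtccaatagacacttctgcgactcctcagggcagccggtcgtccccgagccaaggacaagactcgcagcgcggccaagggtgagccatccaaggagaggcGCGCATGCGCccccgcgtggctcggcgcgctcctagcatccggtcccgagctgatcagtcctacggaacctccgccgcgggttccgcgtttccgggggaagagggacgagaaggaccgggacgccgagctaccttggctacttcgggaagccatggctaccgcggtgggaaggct
Mrpl43: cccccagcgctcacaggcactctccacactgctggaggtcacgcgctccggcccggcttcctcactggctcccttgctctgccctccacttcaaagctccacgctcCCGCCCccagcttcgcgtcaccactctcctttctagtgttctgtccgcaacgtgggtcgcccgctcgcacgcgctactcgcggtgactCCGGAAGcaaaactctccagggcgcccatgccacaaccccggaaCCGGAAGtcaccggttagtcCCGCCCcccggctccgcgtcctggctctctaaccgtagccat
Mrpl21: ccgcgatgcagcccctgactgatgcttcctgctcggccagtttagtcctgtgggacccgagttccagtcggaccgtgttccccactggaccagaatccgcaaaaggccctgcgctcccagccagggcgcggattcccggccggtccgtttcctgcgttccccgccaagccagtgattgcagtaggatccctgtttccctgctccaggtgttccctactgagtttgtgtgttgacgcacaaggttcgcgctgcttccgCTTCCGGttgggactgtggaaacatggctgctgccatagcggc
Mrps26: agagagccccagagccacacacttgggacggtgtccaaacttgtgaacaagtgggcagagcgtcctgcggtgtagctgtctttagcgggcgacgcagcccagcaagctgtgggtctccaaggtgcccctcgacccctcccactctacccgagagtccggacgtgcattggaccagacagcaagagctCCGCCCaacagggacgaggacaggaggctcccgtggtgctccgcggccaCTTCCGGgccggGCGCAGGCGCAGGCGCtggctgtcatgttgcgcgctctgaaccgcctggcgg
Mrpl36: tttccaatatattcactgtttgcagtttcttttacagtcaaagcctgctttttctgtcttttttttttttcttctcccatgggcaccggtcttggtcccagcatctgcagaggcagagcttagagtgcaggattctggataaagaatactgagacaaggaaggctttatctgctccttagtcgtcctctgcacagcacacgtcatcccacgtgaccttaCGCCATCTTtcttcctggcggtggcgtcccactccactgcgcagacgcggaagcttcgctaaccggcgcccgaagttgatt
Mrpl20: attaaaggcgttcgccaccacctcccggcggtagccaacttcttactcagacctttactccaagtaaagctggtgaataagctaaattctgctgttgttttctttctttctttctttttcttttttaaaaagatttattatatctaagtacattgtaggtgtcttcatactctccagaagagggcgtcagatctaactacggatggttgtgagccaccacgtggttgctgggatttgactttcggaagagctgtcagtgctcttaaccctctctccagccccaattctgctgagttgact

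These promoters lie at chr16:84735195-84735494 (Mrpl39), chr19:45006393-45006692 (Mrpl43), chr19:3282792-3283091 (Mrpl21), chr2:130563507-130563806 (Mrps26), chr13:73330759-73331058 (Mrpl36) and chr4:155802628-155802927 (Mrpl20), the first pair on the minus strand and the others on the plus strand. The single NRF1 match of Mrpl39 starts 125 bases upstream of the start and reads as the motif on both strands. In Mrps26 both NRF1 matches overlap each other, the first of them across the start. The start of Mrpl36 used here is an annotated start 2506 bp inside the gene.

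**Figure D1:**
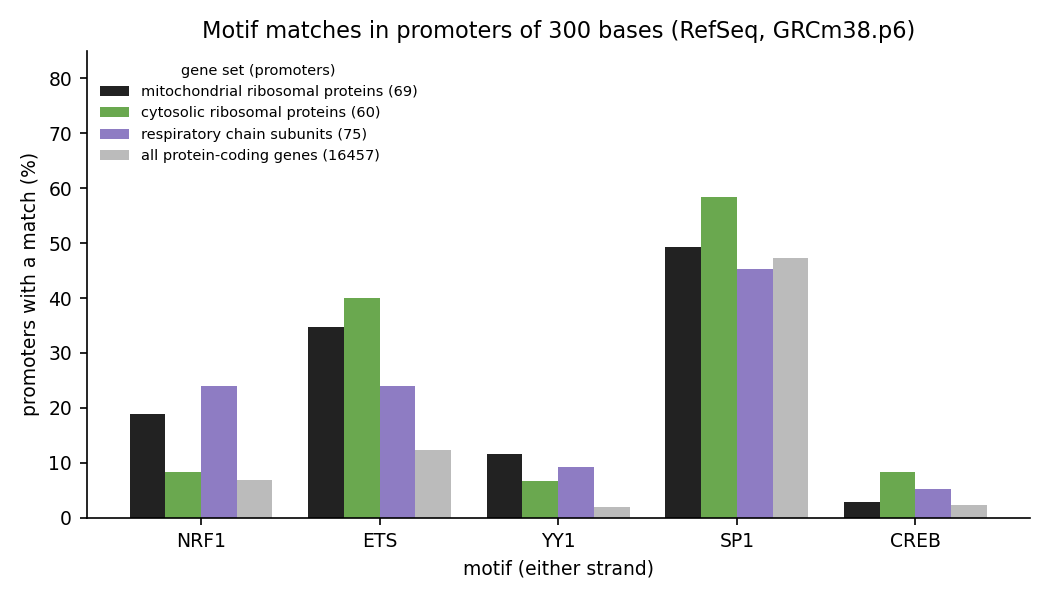
Share of promoters (vertical axis, percent) with at least 1 match to each motif (horizontal axis) in 4 sets of genes, the number of promoters in brackets. NRF1, ETS and YY1 matches were more frequent in mitochondrial ribosomal protein genes (18.8%, 34.8% and 11.6%) than over all promoters (6.88%, 12.3% and 1.92%), and SP1 matches were not.

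Around the start the members were almost free of methylation in all 4 libraries. In the 250 bp before the start 1.10%, 3.79%, 2.37% and 1.01% of reads were methylated in control 1, control 2, FGR 1 and FGR 2, summed over 69 members, and in the 250 bp after it 0.598%, 1.403%, 1.21% and 0.631%. Over all protein-coding genes the same windows had 14.1% to 19.8% and 16.7% to 24.5%. The members' low region was also sharply bounded on the side inside the gene. From 1500 to 2000 bp inside the gene they had 88.7% to 89.8%, against 65.5% to 69.2% over all genes. On the outer side they did not stand out, with 66.7% to 80.1% from 2000 to 1500 bp upstream, against 70.6% to 73.3% over all genes. No window within 500 bp of the start set both FGR libraries apart from both controls.

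**Figure D2:**
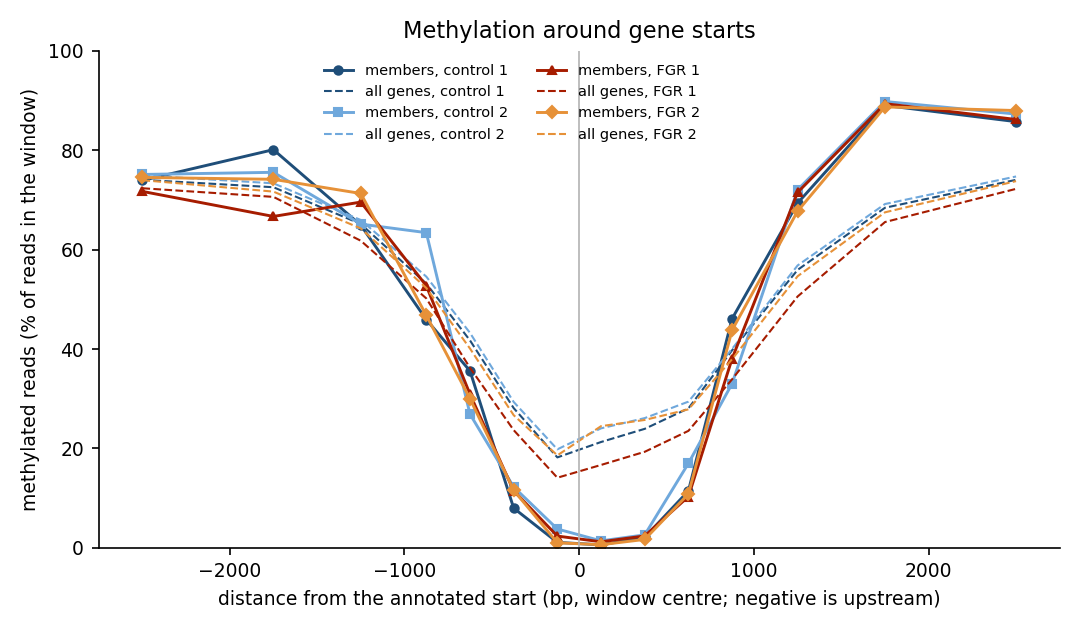
Methylated reads (vertical axis, percent of reads in a window) by distance from the annotated start (horizontal axis, bp), solid lines for 69 mitochondrial ribosomal protein genes and dashed lines for all protein-coding genes, 1 colour per library. All 4 solid lines run below 4% in the 250 bp on each side of the start and reach 88.7% to 89.8% by 1500 to 2000 bp inside the gene, above the dashed lines.

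This trough was thinly covered, and the tables list only cytosines with 5 or more reads. Of the 1472 CpGs in the members' promoters 12.5% were listed in control 1, 13.3% in control 2, 14.2% in FGR 1 and 24.7% in FGR 2. Their levels were 1.01%, 3.40%, 2.03% and 0.895%, over 1089 to 2457 reads. Within the motifs themselves the listed CpGs had at most 2 methylated reads per motif and library, with 0 of 25, 0 of 32, 0 of 17 and 1 of 57 reads at NRF1 matches and 0 of 12, 0 of 27, 0 of 17 and 1 of 64 at ETS matches. A count of 0 of 12 reads allows a level of up to 25%, so single motifs were not measured closely.

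Mrpl20, a large-subunit protein with a bacterial counterpart, was the exception among members with a listed promoter CpG. Its promoter had 45.2% of 62 reads methylated in control 2 and 34.5% of 29 in FGR 1, and no CpG listed in control 1 or FGR 2. No other member had over 10% in any library. A promoter CpG was listed for only 32 and 32 of 69 members in control and 38 and 41 in FGR. In the wider region within 500 bp of its start, Mrpl36 had 90% and 100% in control and 47.0% and 73.3% in FGR. These values rest on 2 and 2 CpGs in control and 11 and 5 in FGR. Mrpl36 was not alone in having high values in this region. Mrpl24 had 58.3% over 2 CpGs in control 1 and 4.82% to 20.3% in the other libraries. Mrpl42 had 96.2% over 3 CpGs in FGR 2 and 0% in the other libraries. The Mrpl20 window holds 8 CpGs, among the fewest of the members, where 7 to 39 were found, and none of the 5 motifs.

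In the wider start window, from 1500 bp outside to 500 bp inside the gene, 61 members with an annotated start were measured in all 4 libraries. The median member had 15.6% and 23.4% in control and 17.2% and 18.9% in FGR. The lowest mean over the libraries was that of Mrpl18, a large-subunit protein, with 0.541%, 0%, 0.424% and 0.334% over 55 to 299 reads, the 0% allowing up to 5.45%. Mrps18b was next with 0.865%, 0%, 1.22% and 0.287%. The highest were Mrpl36, with 90.5% and 100% in control and 50% and 77.4% in FGR, Mrps33, a small-subunit protein found only in mitochondrial ribosomes, with 76.2%, 54.8%, 86.6% and 61.9%, Mrpl42 with 75.9%, 69.1%, 11.4% and 93.8%, and Mrpl9 with 53.3%, 87.8%, 11.5% and 63.8%. In Mrpl42 and Mrpl9 the FGR 1 library alone was low, and in FGR 1 the listed CpGs were 21 and 12, against 5 to 13 elsewhere. At the outer end of the Mrpl36 gene, 2506 bp upstream of the start used here, the window had 56.3%, 9.68%, 24.5% and 31.6%. The largest step between neighbours in this order was 9.62 points, less than the median gap between libraries of 1 group, which was 11.3 points in control and 11.9 points in FGR.

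Over whole spans the members were mostly methylated, with means over the libraries from 25.5% to 89.2% and a median of 67.6%. The 3 highest were small-subunit genes with long bodies. Mrps28 had 89.7%, 90.6%, 88.3% and 88.3%, Mrps9, whose protein has a bacterial counterpart, 82.4%, 87.9%, 88.3% and 90.8%, and Mrps35 83.0%, 85.8%, 89.1% and 91.1%. The 3 lowest were short. Mrps34, a small-subunit protein, had 17.1%, 13.2%, 12.6% and 59.1%, Mrpl34, a large-subunit protein with a bacterial counterpart, 49.6%, 32.1%, 14.4% and 23.4%, and Mrpl57 13.4%, 46.2%, 29.2% and 52.4%. Libraries of 1 group lay farther apart in these short genes than in the long ones, as in Mrps34, where FGR 2 stood above the other libraries.

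**Figure D3:**
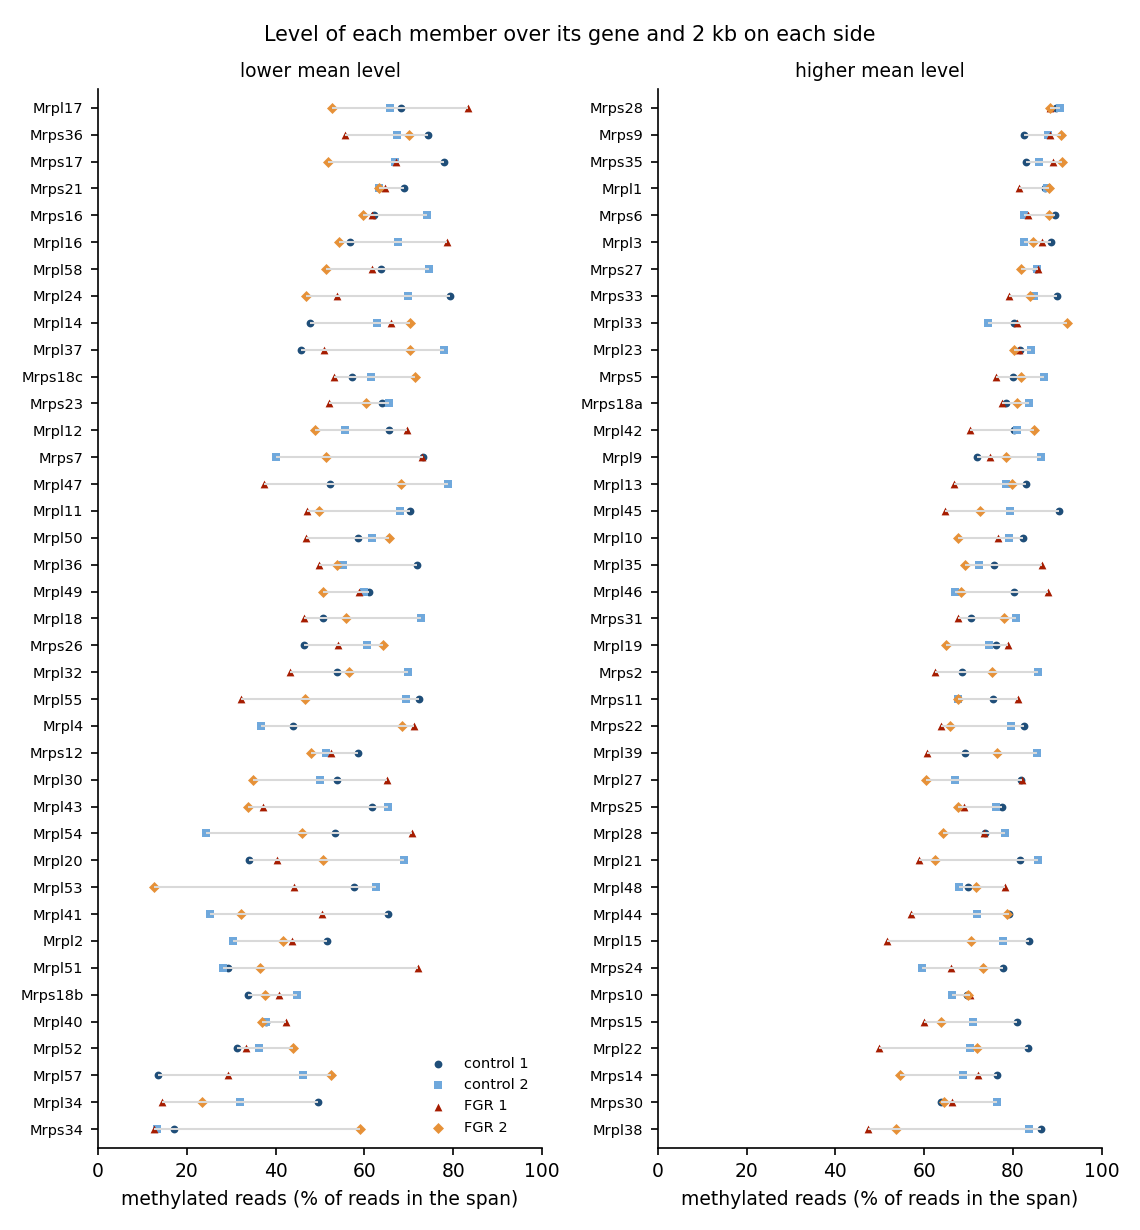
Level of each of the 78 members over its span (horizontal axis, percent of reads methylated), 1 row per gene ordered by mean and 1 symbol per library. Short genes at the lower left, such as Mrps34 (12.6% to 59.1%), spread widely between libraries, while the highest, such as Mrps28 (88.3% to 90.6%), did not.

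No member's span differed between FGR and control by the quasi-binomial test across all genes, in which a gene counts as called at an adjusted p under 0.05 and at least 10 points. The test called 0 of 78 members and 0 of 20219 genes (0%), with a smallest adjusted p of 0.745. At an unadjusted p under 0.05 were 14 of 78 members (17.9%), 12 of them lower in FGR, against 6.39% and, for lower, 5.18% of all genes. The level was lower in FGR in 55 of 78 members, against 63.8% of all genes. The median difference, FGR minus control, was -3.28 points for the members and -1.26 points for all genes. It was -3.89 points for the 49 large-subunit genes, of which 35 were lower, and -2.09 points for the 29 small-subunit genes, of which 20 were lower. The groups did not overlap in 31 members (39.7%, against 36.6% of all genes). Both FGR libraries lay below both controls in 23 members (29.5%, against 26.2% of all genes) and above both in 8 (10.3%, against 10.4%).

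The 6 spans with the largest negative differences were all of large-subunit genes. Mrpl38, found only in mitochondrial ribosomes, had 86.3% and 83.5% in control and 47.3% and 53.6% in FGR over 190 to 463 reads. Both FGR libraries lay far below both controls, and the difference was -34.5 points (quasi-binomial p = 0.00107 unadjusted, 0.745 adjusted). Mrpl43, whose protein is likewise found only there, had 61.8% and 65.3% against 37.1% and 33.8%, a difference of -28.1 points. Over the gene without the 2 kb on each side the difference was 14.2 points in the other direction. Mrpl21, whose protein has a bacterial counterpart, had 81.7% and 85.7% against 58.9% and 62.5%, a difference of -23.0 points. Mrpl55, another found only in mitochondrial ribosomes, had 72.3% and 69.3% against 32.3% and 46.6%, and Mrpl24, another protein shared with bacteria, 79.4% and 69.8% against 53.8% and 47.0%. In both the groups did not overlap. Mrpl53, the shortest gene, had 57.6% and 62.7% against 44.1% and 12.7% over 68 to 197 reads, with FGR 2 far below the other libraries.

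Among the 6 spans with the largest positive differences the libraries of a group lay farther apart. Only Mrpl4, a large-subunit protein with a bacterial counterpart, had tight groups, with 44.0% and 36.7% in control and 71.2% and 68.5% in FGR, a difference of 29.5 points (quasi-binomial p = 0.00430 unadjusted, 0.745 adjusted). Mrpl51 had 29.2% and 28.2% against 72.0% and 36.6%, where FGR 1 made most of the difference of 25.6 points, and without it the difference was 7.92 points. Mrps34 was higher by 20.7 points through FGR 2 alone, and without that library the difference was -2.55 points. Mrpl54 had 53.4% and 24.4% against 70.6% and 45.9%, and Mrpl57 differed by 11.0 points. In both the groups overlapped. Mrpl14, a protein shared with bacteria, had 47.8% and 62.9% against 66.1% and 70.3%.

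These span levels moved with where in the gene the reads lay. Within 500 bp of the start the median member had 8.69% and 10.2% of its span's reads in control and 16.4% and 17.0% in FGR. In these members, both FGR libraries thus listed more of the unmethylated trough than both controls, and this share was not computed over all genes. In Mrpl43 no CpG of that region was listed in either control, while it held 31.2% and 30.4% of the reads in FGR, with 5.17% and 1.22% methylated. In Mrpl55 it held 5.65% and 10.6% of the reads in control and 48.4% and 45.0% in FGR, in Mrpl21 8.69% and 1.14% against 33.5% and 24.6%, and in Mrpl53 13.0% and 12% against 14.7% and 75.6%. In Mrpl51, whose span was higher in FGR, it held 41.7% and 31.6% in control and 11.2% and 26.0% in FGR. Across the 69 members with a start, the change in that share and the span difference had Pearson's r = -0.868 and Spearman's rho = -0.789, as a description over genes that share the same 4 libraries and the same reads. At CpGs farther than 500 bp from the start the median difference was -1.50 points, with 40 of 69 members lower.

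**Figure D4:**
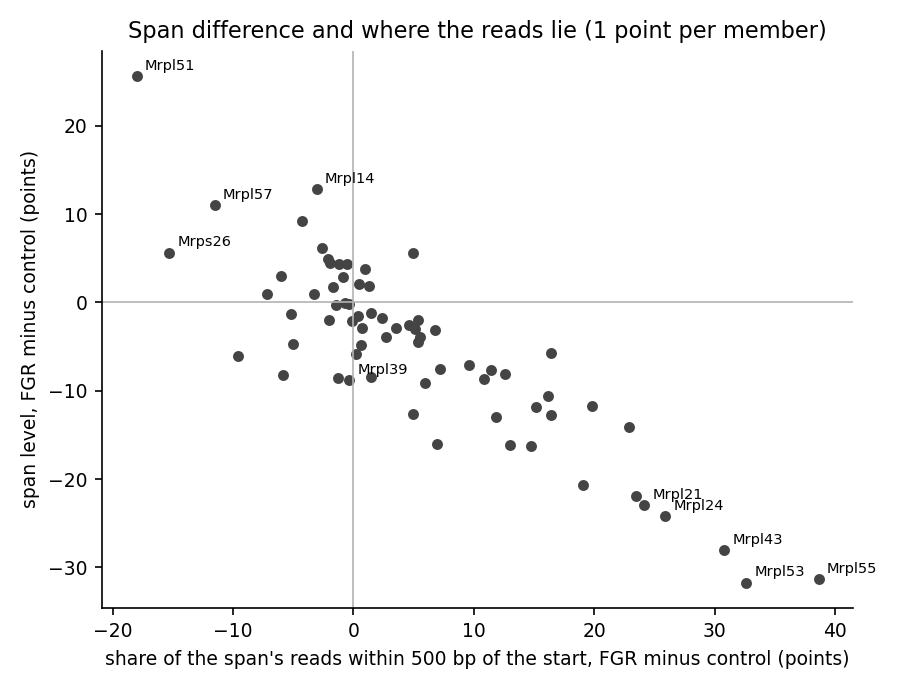
Each point is 1 of 69 members, with the FGR minus control difference in the share of the span's reads within 500 bp of the start (horizontal axis, percentage points) and in the span level (vertical axis, percentage points). Members with more reads near the start in FGR had the lower span levels in FGR (Pearson's r = -0.868, Spearman's rho = -0.789), while Mrpl51 lies at the other end.

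Differences were small where CpGs listed in both groups were each counted equally. At CpGs listed in at least 1 library of each group, a median of 68.5 of the 139.5 listed per member, the median difference was -0.39 points, with 45 of 78 members lower (57.7%), against -0.13 points and 53.5% lower over all genes. No member differed by 10 points there, the range being -6.33 to 6.88 points. Such differences were rare over all genes too, with 258 of 20310 at 10 points or more. Mrpl38 had 74.2% in control and 75.2% in FGR over 28 such CpGs, Mrpl43 74.7% and 80.0% over 24, and Mrpl21 77.4% and 75.7% over 66. Mrpl55 had 70.5% and 70.0% over 27, and Mrpl4 63.2% and 66.4% over 40.

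At gene starts the test also called no member. With both ends taken for the members without an annotated start, 73 starts or ends of members were tested among 17286, and 0 were called (0% of all), with 5 at an unadjusted p under 0.05, 6.85% against 6.28% of all. At CpGs listed in all 4 libraries 18 of these starts and ends could be tested, and 0 were called (0% of all), with 0 at an unadjusted p under 0.05 (0.623% of all). Each of the 18 held 3 to 8 such CpGs and no simulation was run for them, so these 0 calls do not show that they were alike. Over the 61 annotated starts the median difference was -2.48 points, with 38 lower, and over all 11459 annotated starts it was -1.29 points. In a narrower window, from 500 bp outside to 500 bp inside, the members' median was 0 points over 41 starts, and with every CpG counted equally in the wider window it was -3.84 points. Mrps26, a small-subunit protein found only in mitochondria, had 2.17% and 0% in control and 21.4% and 30.2% in FGR over 43 to 56 reads, a difference of 24.7 points (quasi-binomial p = 0.00917 unadjusted, 0.751 adjusted). Both FGR libraries lay above both controls, and the 0% allows up to 5.88%. In its promoter, 8 and 9 CpGs were listed in the controls, at 2.50% and 0%, and none in the FGR libraries. Within 500 bp of the start on either side the 4 libraries were alike, with 2.50% and 0% in control over 8 and 9 CpGs and 2.27% and 0% in FGR over 8 and 3. The rest of the window, farther upstream, held 1 CpG in each control, with 0 of 6 and 0 of 5 reads methylated, 1 in FGR 1 with 11 of 12, and 3 in FGR 2 with 13 of 24, so the start difference rested on these few CpGs. Mrps25, another small-subunit protein, had 18.8% and 27.3% against 8.45% and 3.03%. Of the members without an annotated start, the low end of Mrpl38 by coordinate had 86.1% and 79.3% against 10.6% and 38.0%, and the high end of Mrpl19, whose protein is shared with bacteria, 73.3% and 65.7% against 26.3% and 35.4%. On simulated data 0 of 50 starts changed by 30 points and 22 of 50 changed by 60 points were recovered among 17286, so only very large differences could be called there.

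In windows of 1 kb on a fixed grid, 540 tiles over 74 members were tested among 550538 and 0 were called (0.000182% of all), with 37 at an unadjusted p under 0.05 (6.85%, against 5.13% of all). In simulated data 0 of 50 tiles changed by 40 points and 7 of 50 changed by 60 points were recovered. The 0 calls therefore do not show that the tiles were alike. The smallest adjusted p, 0.0941, was at Mrpl43 on chromosome 19 from 45007001 to 45008000, upstream of the gene. There the level was 85% and 82.9% in control over 20 and 70 reads and 8% and 28.8% in FGR over 25 and 212. The tile from 45005001 to 45006000, which holds most of the gene body, went the other way, with 16.5% and 20% in control and 42.4% and 56.0% in FGR (quasi-binomial adjusted p = 0.464). In both tiles the groups did not overlap.

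One member was called once only CpGs listed in all 4 libraries were used. At these shared CpGs 60 members and 16652 genes were tested, and Mrpl39 was the single call among the members and among all genes (0.00601%). Mrpl39 encodes a large-subunit protein found only in mitochondrial ribosomes, and the gene lies on chromosome 16 from 84718281 to 84735244. At its 22 shared CpGs the level was 69.4% of 147 and 68.3% of 142 reads in control and 45.2% of 177 and 41.5% of 188 in FGR. Both FGR libraries lay well below both controls, and the level fell from 68.8 ± 0.762% to 43.3 ± 2.62% (SD, n = 2), by 25.5 points (quasi-binomial adjusted p = 0.0147). Without control 2 the difference, at the CpGs listed in the other 3 libraries, was -15.5 points (quasi-binomial adjusted p = 0.199) and without FGR 2 it was -16.1 points (quasi-binomial adjusted p = 0.190). It was -18.6 points without control 1 and -13.6 points without FGR 1, where the call held (quasi-binomial adjusted p = 0.0464 and 0.0316). With every CpG counted equally the difference was -7.58 points (limma adjusted p = 0.946).

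The reads of Mrpl39 were distributed differently over the same 22 CpGs. Of these, 9 lie 542 to 662 bp from the start on either side, and they held 34.0% and 32.4% of the reads in control and 55.9% and 51.1% in FGR. Their levels were low throughout, at 18% and 6.52% in control and 9.09% and 3.13% in FGR. The other 13 CpGs, farther than 1 kb from the start, had 95.9% and 97.9% in control and 91.0% and 81.5% in FGR, so that the FGR libraries were lower there too, by far less. Single CpGs rest on 5 to 17 reads, and 10 of the 22 were lower in FGR, 4 higher and 8 equal. Of the 13 distant CpGs the one 15046 bp inside the gene had 87.5% and 85.7% in control and 66.7% and 33.3% in FGR, while 5 of those inside the gene stood at 100% in every library. Over its whole span Mrpl39 had 69.2% and 85.5% in control and 60.7% and 76.3% in FGR, and the groups overlapped.

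**Figure D5:**
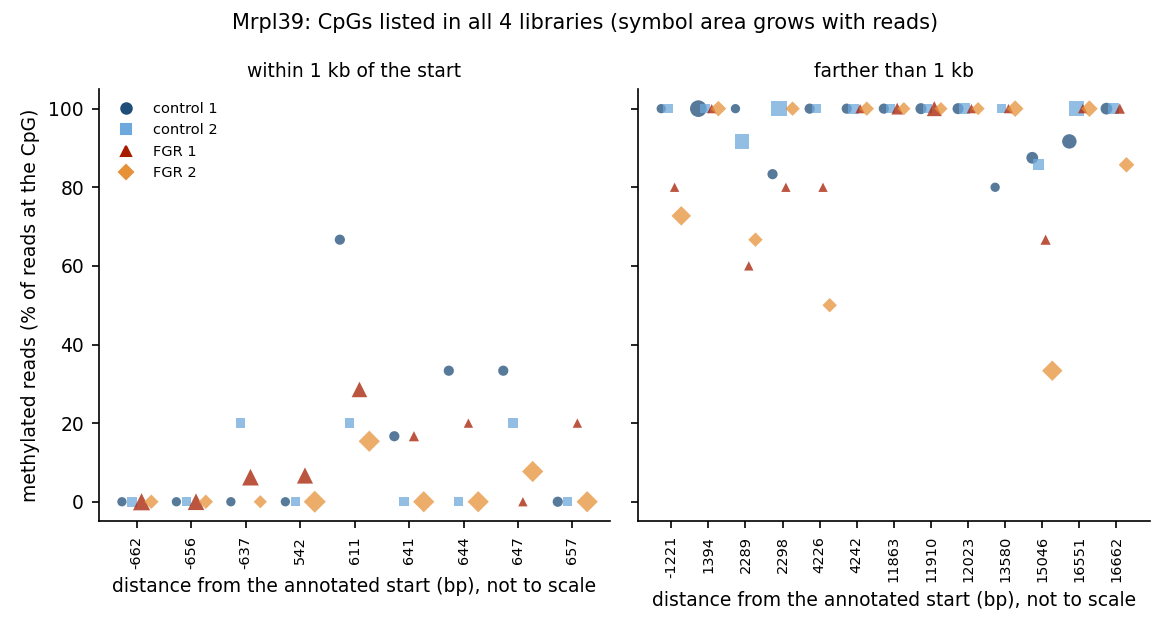
Levels of the 22 Mrpl39 CpGs listed in all 4 libraries (vertical axis, percent of reads methylated), in order of distance from the annotated start (horizontal axis, bp, not to scale), with symbol area growing with the reads. The 9 CpGs near the start are low and have larger FGR symbols (51.1% to 55.9% of the reads, against 32.4% to 34.0% in control), and most of the 13 distant CpGs are near 100%.

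Over the 60 members at shared CpGs the median difference was -0.85 points, with 37 lower (61.7%), against -0.30 points and 54.2% lower over all genes. It was 0.43 points without control 2 and 0.88 points without FGR 2. At an unadjusted p under 0.05 were 4 members (6.67%), against 5.42% of all genes. After Mrpl39 came Mrpl21 with 91.4% and 91.5% in control and 83.3% and 82.1% in FGR over 9 CpGs, Mrpl36 with 64.2% and 51.4% against 69.8% and 70.4%, and Mrpl35, a protein shared with bacteria, with 89.2% and 96.9% against 80.4% and 85.7%. In each of these the groups did not overlap, and each had an adjusted p of 0.916 by the quasi-binomial test. In Mrpl21 the difference at shared CpGs was -8.72 points, against -23.0 points over its span. Mrpl36 was higher in FGR at shared CpGs and lower over its span. With every shared CpG counted equally the differences of Mrpl21, Mrpl36 and Mrpl35 were -8.90, 0.63 and -7.32 points, so the rise in Mrpl36 was small there.

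The Mrps18 paralogs are a family of related genes whose proteins go to different places, Mrps18a to the large subunit and Mrps18b and Mrps18c to the small one. All are counted by symbol with the small-subunit genes here. Their spans had different levels and none differed between the groups beyond the gap between libraries. Mrps18a had 78.4%, 83.5%, 77.5% and 81.0%, Mrps18b 33.8%, 44.8%, 40.8% and 37.6%, and Mrps18c 57.1%, 61.5%, 53.2% and 71.4%. At their shared CpGs the differences were 1.93, 2.42 and -6.94 points. There the groups overlapped in Mrps18a and Mrps18b but not in Mrps18c. It had 86.2% and 86.4% in control and 80.4% and 78.4% in FGR (quasi-binomial adjusted p = 0.952).

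Related genes gave a like picture. Of 5 proteins of the mitochondrial ribosome under other symbols, such as Dap3, 0 were called (0 at an unadjusted p under 0.05), 3 spans were lower in FGR, and the median difference was -5.24 points. Of 36 measured factors of mitoribosome assembly and mitochondrial translation, such as the elongation factor Tufm, 0 were called. An unadjusted p under 0.05 was found for 8 of the 36, against 6.39% of all genes. Among these factors 28 spans were lower (77.8%, against 63.8% of all genes), and the median was -2.55 points. The most negative was Tufm itself, with 55.8% and 86.2% in control and 17.5% and 48.1% in FGR, and the most positive was Ngrn, a factor of mitoribosome assembly, with 48.9% and 53.3% against 84.9% and 79.6%. In both the groups did not overlap. Cytosolic ribosomal protein genes had a median of -4.14 points with 50 of 80 lower. Respiratory chain genes, taken by symbol with their assembly factors, had -3.54 points with 65 of 93 lower. Of the 80 and the 93, 11 and 10 had an unadjusted p under 0.05 and 0 were called. At shared CpGs these medians were -1.52, -0.86, -1.57 and -0.13 points, beside -0.85 for the mitochondrial ribosomal proteins.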

How the data were processed

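Whole-genome bisulfite sequencing was compared between 2 control and 2 FGR libraries, grouped by their titles. The submitters' processing notes list Trim Galore 0.6.5, methylKit 1.28.0, Bismark without a version, and mm10. Each deposited table lists cytosines in CpG context by strand, with coverage as a count of reads and methylation as a percent of reads, per the file headers. No cytosine under 5 reads is listed, so the CpGs listed vary with depth. Coverage times percent gave whole methylated reads for all listed cytosines.

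Both strands were summed per CpG and the 0.1% of CpGs with the highest coverage left out of each library. A level is methylated over all reads of a region, so a read over several CpGs counts at each, and limits for counts of 0 (3 counts) cover counting error only. Genes and promoters came from RefSeq tables of GRCm38.p6, the assembly of mm10. As a check, 100% of 55639 CpGs listed in promoters of control 1 fell on CG. Start windows run from 1500 bp outside to 500 bp inside the annotated start. For 9 members with no promoter entry (Mrpl13, Mrpl15, Mrpl19, Mrpl38, Mrpl4, Mrpl54, Mrps28, Mrps34 and Mrps35) both gene ends were tested, named by coordinate. Regions needed 3 CpGs and 10 reads in every library. The counts of methylated and unmethylated reads were fitted over all autosomal protein-coding genes, or all tiles, by a quasi-binomial model whose single factor was the group. The overdispersion was moderated by limma 3.58.1 (squeezeVar, coverage trend) in R 4.3.3 and not let below 1. A call took a Benjamini-Hochberg adjusted p under 0.05 and 10 points. Leaving out a library of 2 assumes that the lone library varies like the others. With 50 regions changed by each of 20, 30, 40 and 60 points in simulated data, 32, 43, 48 and 50 were recovered among 20219 spans, with 11 of 184 calls false, and 34, 43, 50 and 50 among 16652 spans at shared CpGs, with 3 of 180 false. In these simulations a level did not depend on which CpGs were listed, and the overdispersion was set from the median for every region. Regions with a wider spread would be recovered less often than these counts show. In the real spans the difference of -34.5 points in Mrpl38 was not called.

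Members and lists were chosen with earlier results of these data known. Genes are named by rule: members called, the 6 largest differences in each direction, the 4 smallest p at spans, starts and shared CpGs, the 3 highest and 3 lowest spans, the 4 highest starts, Mrpl39 and the Mrps18 paralogs, 28 members in all.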

Additional observations from a re-analysis of the deposited data

How the results depend on the processing

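With 2 libraries a group and listed CpGs of 6.51 to 6.76 reads on average, these data resolve large differences only, and a span's level depends on which CpGs a library lists. The count of members or tiles called stayed at 0 for spans, starts and 1 kb tiles under every alternative run (with limma on log2 ratios 13, 5 and 41 had an unadjusted p under 0.05), and the tiles were not run with the replicate number as a block. Same-numbered libraries did not deviate together at spans (r = 0.0200 over 20219 genes). This is a single correlation of 1 difference per group and cannot tell whether same-numbered libraries share a litter or day. With the replicate block 0 members were called at spans and starts and 1 at shared CpGs, where Mrpl39 had an adjusted p of 0.0487.

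At shared CpGs the count of 1 went to 0 with limma on log2 ratios, where 6 members had an unadjusted p under 0.05, and to 0 by limma with every CpG counted equally, where 3 had, and lay between 0 and 1 with a library left out. For Mrpl39 there, the difference of -25.5 points had an adjusted p of 0.846 by limma, and the difference was -7.58 points with CpGs counted equally and -18.6 to -13.6 points with a library left out. The median difference at shared CpGs was -0.45 points with at least 5 CpGs (52 members) and -0.53 to 0.88 points with a library left out.

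The median span difference of -3.28 points was -1.20 points at CpGs with at least 10 reads (47 members), -0.39 points at CpGs listed in both groups and -1.50 points farther than 500 bp from the start, and -4.18 to -2.89 points with a library left out. The median start difference of -2.48 points was 0 points over 41 members in the window from 500 bp outside to 500 bp inside, -3.84 points with CpGs counted equally, 4.58 points at CpGs with at least 10 reads, where 3 members remained measurable, and -5.07 to -1.75 points with a library left out.

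Of 211 alternative span differences of the 28 named members 182 kept their direction and side of the threshold and 28 changed direction, in 16 members. At CpGs listed in all 4 libraries the difference turned to -13.3 points in Mrpl14, 1.92 in Mrpl19, -9.98 in Mrpl35, 12.3 in Mrpl36, 4.05 in Mrpl42, -4.70 in Mrpl54, 1.93 in Mrps18a, 2.42 in Mrps18b, -6.94 in Mrps18c, -0.048 in Mrps35 and -0.393 in Mrps9. Without the extension of 2 kb it turned to 14.2 points in Mrpl43, 1.49 in Mrpl9 and -1.75 in Mrps18c, and with CpGs counted equally to 1.69 in Mrps18b. With a library left out it ran from -10.4 to 3.499 points in Mrpl19, -4.87 to 12.6 in Mrpl35, -10.3 to 4.29 in Mrpl42, -5.40 to 27.4 in Mrpl57, -9.67 to 4.62 in Mrpl9, -4.28 to 0.801 in Mrps18a, -5.60 to 5.36 in Mrps18b, -6.04 to 12.1 in Mrps18c, -1.50 to 12.8 in Mrps26 and -2.55 to 43.9 in Mrps34. Chosen after seeing the data were the alternatives by group and by distance, the equal weighting of CpGs at shared CpGs, every alternative for Mrpl39 there and for the tiles, and the outer gene end as start. The causes were not tested.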
